A study of Homo sapiens with 4 samples.

Results

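Lymphotoxin beta, encoded by LTB, and 9 further genes of the tumour necrosis factor (TNF) ligand and receptor families were examined in A549 cells after knockdown of the transcription factor CEBPB. The 10 genes were selected by symbol out of 57820 in the deposited table. They comprise 5 ligands (LTB, TNF, TNFSF9, TNFSF10 and TNFSF15) and 5 receptors (LTBR, TNFRSF1A, TNFRSF12A, TNFRSF21 and TNFRSF11B). They were chosen with the expression values of the CEBPB siRNA and control libraries in view, so for these genes that comparison is given as a description, and nothing is read from how many of them pass in a fit across all genes. A549 is an established human lung adenocarcinoma line, described by the series as having activated NRF2, and all libraries share that background. Cells received CEBPB siRNA-1 (1 library), CEBPB siRNA-2 (1 library) or control siRNA (2 libraries). They were given fresh medium 24 h after transfection and collected after a further 24 h for total RNA sequencing. No label says that the libraries came from separate cultures, so the p-values reflect the scatter among these 4 libraries alone, part of which can be technical. The CEBPB siRNA libraries received different siRNAs. In the comparison with control, their scatter therefore also holds any difference between the siRNAs, which widens the SE and raises the p-value.

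TNF family ligands are membrane proteins, some of them cleaved to soluble cytokines, that act as trimers on receptors of the matching family. Lymphotoxin beta anchors lymphotoxin alpha at the surface of lymphocytes, and the heterotrimer signals through LTBR to the non-canonical NF-κB pathway. TNF signals through TNFRSF1A, which is present on most cells, and through TNFRSF1B. In epithelial cells these receptors are known for the induction of chemokines and adhesion molecules and, when survival signals are lacking, of cell death. CEBPB is a C/EBP family factor that binds many of the promoters used in inflammation.

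LTB and TNF are neighbours on chromosome 6, and their upstream sequences are shown because both genes were higher in each CEBPB siRNA library than in each control library. The sequences are the 250 bases before the start in RefSeq (GRCh38.p14), given 5′ to 3′ on the gene's strand; that build is not the hg19 of the deposited values, and the deposited table gives no coordinates. The window of LTB, a gene on the minus strand, is chr6:31582426-31582675, and that of TNF, on the plus strand, is chr6:31575315-31575564. Capitals mark a match to 1 of the motifs searched on both strands.
LTB: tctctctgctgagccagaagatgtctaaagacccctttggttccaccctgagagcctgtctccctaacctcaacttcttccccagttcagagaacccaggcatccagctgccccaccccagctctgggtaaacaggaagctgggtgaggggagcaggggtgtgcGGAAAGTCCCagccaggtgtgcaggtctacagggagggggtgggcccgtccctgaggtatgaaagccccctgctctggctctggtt
TNF: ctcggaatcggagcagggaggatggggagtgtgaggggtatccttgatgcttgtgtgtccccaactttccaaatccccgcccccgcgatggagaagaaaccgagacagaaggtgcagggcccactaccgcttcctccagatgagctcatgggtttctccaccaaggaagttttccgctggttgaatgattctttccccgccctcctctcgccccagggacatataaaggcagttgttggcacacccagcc
The motifs were the kappaB consensus, bound by NF-κB, the C/EBP motif TTGCNNAA, the AP-1 motif TGANTCA and the NRF2 element TGACNNNGC. LTB has 1 kappaB match, GGGACTTTCC, on the opposite strand from -86 to -77 relative to the start, and it overlaps no other motif. TNF has no match to any of the 4 motifs in this window. Of the 8 members searched, LTB alone matched the kappaB consensus, which 9.96% of 35116 promoter entries hold. LTB has 2 RefSeq promoter entries, and only the 1 shown was searched. TNFSF15 matched the C/EBP motif (held by 9.05% of entries) and the AP-1 motif (6.57%), and TNFSF9 matched the NRF2 element (10.9%). LTBR, TNFRSF1A, TNFRSF21 and TNFSF10 matched none, and TNFRSF12A and TNFRSF11B were not searched. A match describes letters in a window, and no match says nothing about whether the factor binds.

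The targeted gene, CEBPB, was at 12.9 FPKM with siRNA-1 and 10.97 FPKM with siRNA-2, against 78.7 and 80.9 FPKM in the control libraries. FPKM is an abundance scaled by transcript length and sequencing depth, so levels may be compared between genes. The libraries summed to between 494066 and 528606 FPKM. The authors' deposited mean normalized counts summed to 8341083 per library. All 6 epithelial markers averaged at least 1 FPKM. KRT8, a keratin of simple epithelia, was at 1226 and 1467 FPKM with the CEBPB siRNAs, against 1835 and 2517 FPKM with control siRNA. Its partner KRT18 was at 568 and 1351 FPKM with the CEBPB siRNAs, against 1740 and 2502 FPKM in the controls, and passed as lower in the authors' deposited table. The list went both ways, since KRT7 was at 1200 and 1162 FPKM with the CEBPB siRNAs, against 671 and 777 FPKM in the controls, and KRT19 at 5.32 and 7.38 FPKM, against 2.41 and 3.28 FPKM. Of the 6 markers 2 were higher and 3 lower without overlap, where 44.5% of 14068 genes did not overlap (23.5% higher and 21.0% lower). None of the markers passed limma, and 4 had an unadjusted p below 0.05, where 12.2% of all genes did. The part of these shifts in the members' differences was not tested. Among 8 alveolar type II markers SFTPB, SFTPA1, SFTPA2 and NKX2-1 were listed at 0 in every library, while ABCA3 was at 24.8 and 22.0 FPKM with the CEBPB siRNAs, against 14.6 and 11.2 FPKM in the controls.

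**Figure D1:**
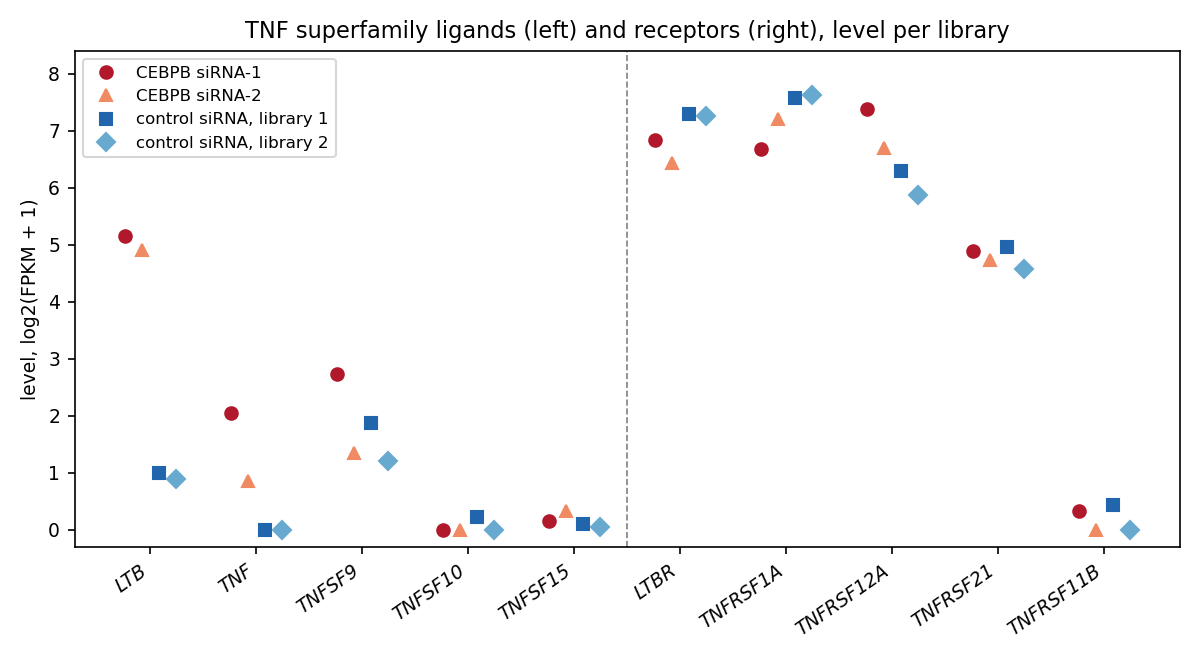
Level of the 10 genes in each library as log2(FPKM + 1), ligands left of the dashed line and receptors right of it, with 1 symbol per library. LTB sits near 5 in both CEBPB siRNA libraries and near 1 in both controls, while TNFSF10, TNFSF15 and TNFRSF11B lie close to 0 throughout.

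In the control cells the members fell into an abundant and a scarce set. TNFRSF1A was the most abundant at 189 and 196 FPKM, ahead of LTBR at 156 and 151 FPKM, TNFRSF12A at 77.1 and 57.6 FPKM and TNFRSF21 at 29.9 and 22.9 FPKM. The control values of these 4 receptors did not overlap. TNFSF9, at 2.64 and 1.30 FPKM, and LTB, at 0.980 and 0.842 FPKM, followed. TNFRSF11B, TNFSF10 and TNFSF15 averaged below 1 FPKM and overlapped one another, and TNF was listed at 0 in both control libraries. In the CEBPB siRNA libraries TNFRSF12A, TNFRSF1A and LTBR overlapped one another, and LTB lay just above TNFRSF21.

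LTB had the largest difference of the members in log2(FPKM + 1). The authors' deposited log2 fold change was larger for TNF, whose controls are listed at 0. LTB was at 34.7 FPKM with siRNA-1 and 29.0 FPKM with siRNA-2, against 0.980 and 0.842 FPKM in the control libraries. Both siRNA libraries stood far above both controls, and the groups did not overlap. The mean was 31.8 FPKM with the CEBPB siRNAs and 0.911 FPKM with control siRNA, a 34.9-fold ratio. In log2(FPKM + 1), where adding 1 shrinks differences of low genes, the difference was 4.10 ± 0.20 (SE, n = 2 libraries per group), rank 1 from the top among the 14068 genes averaging at least 1 FPKM. Both control values were below 1 FPKM, so LTB met that filter only through the CEBPB siRNA libraries, and the rank is a description. Taken singly, siRNA-1 gave 4.22 and siRNA-2 gave 3.97. The authors' deposited mean normalized count for LTB was 150.3. In bulk RNA a change in the number of cells that make a transcript and a change in the transcript per cell cannot be told apart.

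LTB is best known from lymphocytes, so leukocyte markers were examined. Of 18 leukocyte markers 11 were listed at 0 in every library, among them PTPRC (CD45), CD3D, CD3E, CD3G and MS4A1 (CD20). The summed level of the 18 genes was 20.6 and 8.52 FPKM in the CEBPB siRNA libraries, against 11.7 and 14.4 FPKM in the controls, and the groups overlapped. Of the 3 that averaged at least 1 FPKM, CD14 was at 0.862 and 2.002 FPKM with the CEBPB siRNAs, against 3.03 and 3.53 FPKM in the controls (limma adjusted p = 0.351). ITGAM was at 2.25 and 0.728 FPKM with the CEBPB siRNAs, against 1.07 and 0.570 FPKM in the controls, and overlapped. Most of the sum was CD68, whose level is uncertain, since the authors' deposited mean count for it was 0.754.

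TNF, the founding cytokine of the family, was at 3.12 FPKM with siRNA-1 and 0.815 FPKM with siRNA-2, against a listed 0 in both control libraries. Each siRNA library was above both controls, and siRNA-1 was the higher of them. No fold is given against values listed at 0. The authors' deposited mean count was 16.2, so the level rests on few reads. LTA, which encodes the lymphotoxin alpha partner of LTB and lies beside TNF, had 0.460 FPKM in the siRNA-1 library, while siRNA-2 and both controls were listed at 0. Its mean count in the authors' deposited table was 1.73.

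TNFSF9 (4-1BB ligand), a costimulator of T cells, was at 5.62 FPKM with siRNA-1 and 1.54 FPKM with siRNA-2, against 2.64 and 1.30 FPKM in the controls. Only the siRNA-1 library lay beyond the controls, and the groups overlapped. The difference was 0.50 ± 0.50 on the log2 scale, 1.19 with siRNA-1 and -0.19 with siRNA-2. TNFSF15 (TL1A) was at 0.110 and 0.259 FPKM with the CEBPB siRNAs, against 0.0748 and 0.0322 FPKM in the controls, with an authors' deposited mean count of 6.37. TNFSF10 (TRAIL), which triggers apoptosis through death receptors, was listed at 0 with both CEBPB siRNAs, against 0.159 FPKM and 0 in the controls. The authors' deposited mean count was 2.22, so no difference in TNFSF10 was detectable at this depth.

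**Figure D2:**
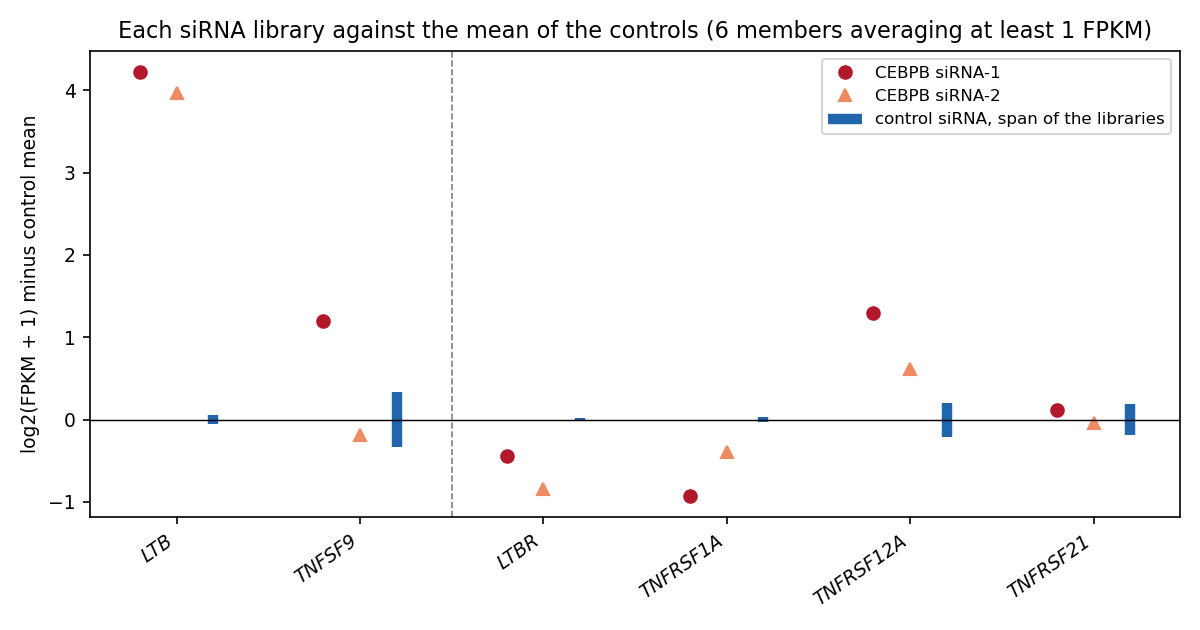
Difference of each CEBPB siRNA library from the mean of the control libraries on the log2(FPKM + 1) scale for the 6 members averaging at least 1 FPKM, with the blue bar as the span of the controls. LTB lies at 4.22 and 3.97, TNFRSF12A above the controls and LTBR and TNFRSF1A below them with each siRNA.

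LTBR and TNFRSF1A, the member receptors of LTB and TNF, had lower values after knockdown. LTBR was at 113 FPKM with siRNA-1 and 85.5 FPKM with siRNA-2, against 156 and 151 FPKM in the controls. The siRNA mean was 0.645 of the control mean, and the log2 difference was -0.64 ± 0.19. TNFRSF1A, which carries a death domain and recruits TRADD, was at 101 FPKM with siRNA-1 and 147 FPKM with siRNA-2, against 189 and 196 FPKM in the controls. Its siRNA mean was 0.643 of the control mean, and the log2 difference was -0.66 ± 0.21. For each of these receptors both siRNA libraries lay below both controls. The distance from the controls was larger with siRNA-2 for LTBR (-0.84, against -0.44 with siRNA-1) and with siRNA-1 for TNFRSF1A (-0.92, against -0.39 with siRNA-2).

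TNFRSF12A (Fn14), the receptor of the cytokine TWEAK, was the member receptor with higher values after knockdown. It was at 166 FPKM with siRNA-1 and 103 FPKM with siRNA-2, against 77.1 and 57.6 FPKM in the controls, and the groups did not overlap. The siRNA mean was 1.99 times the control mean, with a log2 difference of 0.96 ± 0.28. TNFSF12, which encodes TWEAK, was at 6.01 and 6.85 FPKM with the CEBPB siRNAs, against 4.74 and 6.11 FPKM in the controls (log2 difference 0.21 ± 0.21, limma adjusted p = 0.740). TNFSF12 lies in a readthrough locus, and the part of this in its level was not tested. TNFRSF21 (DR6), a death domain receptor, was at 28.5 and 25.4 FPKM with the CEBPB siRNAs, against 29.9 and 22.9 FPKM in the controls, and both siRNA values lay between the controls. TNFRSF11B (osteoprotegerin), a secreted decoy receptor, was at 0.247 FPKM with siRNA-1 and 0 with siRNA-2, against 0.343 FPKM and 0 in the controls.

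Counted over the table, 6 of the 10 members averaged at least 1 FPKM and entered the fit across all genes, and TNF, TNFSF10, TNFSF15 and TNFRSF11B did not. LTB was the 1 member past an adjusted p of 0.05 in limma, where 0.235% of 14068 genes passed (0.064% higher and 0.171% lower). LTB, TNF and TNFRSF12A were past it in the authors' deposited table, of 8 members with an adjusted p there, where 4.14% of 14675 genes passed (2.71% higher and 1.42% lower). Of the 6 members, LTB and TNFRSF12A were higher and LTBR and TNFRSF1A lower in both siRNA libraries than in both controls, while 44.5% of 14068 genes did not overlap (23.5% higher and 21.0% lower). Since the comparison was in view when the genes were chosen, and LTB entered the fit only through its CEBPB siRNA values, these counts are a description. LTB was no longer past the threshold without control 1, without control 2 or with no filter on low values. Without siRNA-2, the log2 difference was 1.30 for TNFRSF12A and -0.92 for TNFRSF1A.

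The difference between CEBPB siRNA-1 and CEBPB siRNA-2 was not used to choose the genes and was tested in limma with 3 groups, where the spread comes from the 2 controls and each siRNA library is assumed to share it. None of the 6 members passed an adjusted p of 0.05, where 0.441% of 14068 genes did (0.114% higher and 0.327% lower with siRNA-1). In all, 4 of the 6 had an unadjusted p below 0.05, as had 22.4% of all genes. No other tool was run for this contrast. LTB differed by 0.25 ± 0.22 on the log2 scale (siRNA-1 minus siRNA-2; 95% interval -0.31 to 0.81; adjusted p = 0.546). TNFSF9 differed by 1.38 ± 0.39 (0.37 to 2.39; adjusted p = 0.147) and TNFRSF12A by 0.68 ± 0.23 (0.077 to 1.29; adjusted p = 0.190), both with the higher value for siRNA-1. LTBR differed by 0.40 ± 0.14 (adjusted p = 0.200) and TNFRSF1A by -0.53 ± 0.14 (adjusted p = 0.13). TNFRSF21 differed by 0.16 ± 0.23 (-0.44 to 0.76; adjusted p = 0.732). The intervals are not adjusted for the number of genes. With genes averaging at least 5 FPKM, TNFRSF12A was past the threshold.

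**Figure D3:**
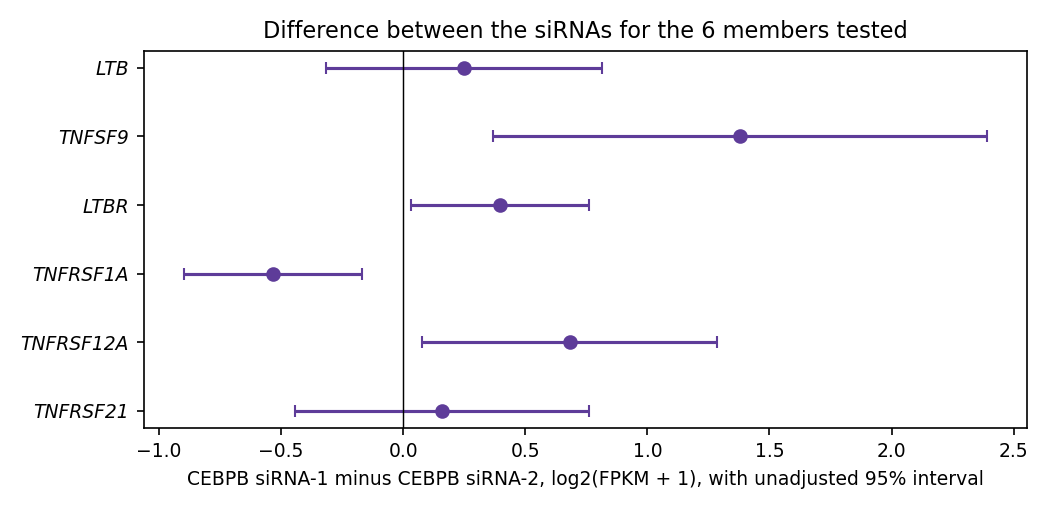
CEBPB siRNA-1 minus CEBPB siRNA-2 for the 6 members in the fit, on the log2(FPKM + 1) scale, with unadjusted 95% intervals from limma. The intervals of LTB and TNFRSF21 span 0, TNFRSF1A is the 1 member with a negative value, and none passed the adjusted threshold.

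Among the ligands and receptors of the family that are not members, 12 of 37 genes averaged at least 1 FPKM. None passed limma, and 6 had an unadjusted p below 0.05 (12.2% of all genes did). Of the 17 genes with an adjusted p in the authors' deposited table, 3 rose there, where 2.71% of 14675 genes did. These 3 were CD70, TNFRSF9 and TNFRSF1B, of which TNFRSF1B averaged below 1 FPKM. The median log2 difference of the 12 genes was 0.62, beside 0.001 over all 14068 genes. A further 12 of the 37 genes, including CD40LG, FASLG and CD27, were listed at 0 in every library. The number of these genes passing limma changed with the library left out, as it did over all genes.

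CD70, a ligand that binds CD27 and whose gene lies near TNFSF9 on chromosome 19, was at 25.6 FPKM with siRNA-1 and 8.15 FPKM with siRNA-2, against 1.95 and 1.65 FPKM in the controls. Its log2 difference was 2.48 ± 0.50 (limma adjusted p = 0.159), and the authors' deposited table gives 3.15 with an adjusted p of 2.2e-05. TNFRSF9 (4-1BB), the receptor of TNFSF9, was at 15.0 FPKM with siRNA-1 and 3.58 FPKM with siRNA-2, against 1.30 and 0.894 FPKM in the controls. The log2 difference was 2.04 ± 0.58 (limma adjusted p = 0.269), and the authors' deposited table gives 3.08 with an adjusted p of 0.00012. For CD70 and TNFRSF9 siRNA-1 gave the higher level, by 1.54 and 1.81 on the log2 scale, each with a limma adjusted p of 0.0666. That difference passed the threshold for both genes with upper-quartile scaling, with median-of-ratios scaling and with genes averaging at least 5 FPKM. Over all genes, 83 were higher and 82 lower of 14063 with upper-quartile scaling, and 88 and 83 of 14052 with median-of-ratios scaling. With the 5 FPKM filter, 480 were higher and 813 lower of 9511. TNFRSF1B, the other TNF receptor, was at 1.258 and 0.142 FPKM with the CEBPB siRNAs and listed at 0 in both controls, and it passed in the authors' deposited table (adjusted p = 0.0064).

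The death receptors of TRAIL were abundant although TNFSF10 itself was scarce. TNFRSF10B (DR5), the receptor with the highest mean outside the members, was at 135 FPKM with siRNA-1 and 68.7 FPKM with siRNA-2, against 61.6 and 40.8 FPKM in the controls. Its libraries did not overlap, but the log2 difference of 0.93 ± 0.37 did not pass (limma adjusted p = 0.401). TNFRSF10A (DR4), named after its values were seen, was at 24.2 and 19.8 FPKM with the CEBPB siRNAs, against 23.2 and 17.6 FPKM in the controls.

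**Figure D4:**
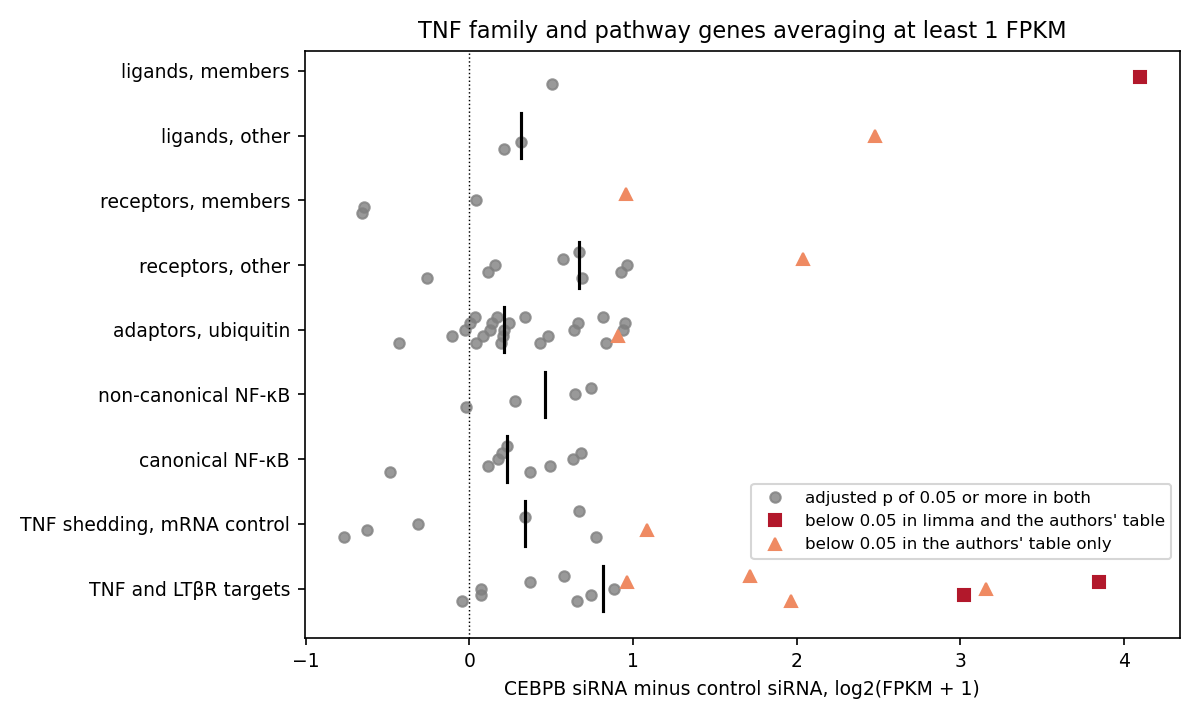
CEBPB siRNA minus control siRNA difference on the log2(FPKM + 1) scale for each gene averaging at least 1 FPKM, in rows by role, with the black line as the list median where the genes are not members. Red squares passed an adjusted p of 0.05 in limma and in the authors' deposited table, and orange triangles in that table only. The lists differ in size and were chosen with earlier results known, so coloured symbols are not compared between rows.

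Downstream of the receptors, 69 genes in 5 lists were examined and 58 averaged at least 1 FPKM. Past the threshold were 2 genes in limma and 8 in the authors' deposited table, all of them higher with the CEBPB siRNAs, and the median log2 difference of the 58 was 0.36. The 2 in limma were CCL2 and IL32, both among TNF and LTBR targets. In the authors' deposited table they were joined by IL8, ICAM1, CXCL2, CSF2, TNFAIP3 and ZFP36L1. The lists were chosen with earlier results of these data known, so their counts are not independent evidence of direction. Over all genes tested, 12.2% had an unadjusted p below 0.05 in limma, 0.064% passed as higher there and 2.71% in the authors' deposited table, and the counts by list are to be read beside these shares. The number of these genes passing limma changed with the library left out, as did the number over all genes, so it is not read as a result about the lists.

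Of 24 adaptor and ubiquitin genes none passed limma, 3 had an unadjusted p below 0.05, and 1 rose in the authors' deposited table. That gene was TNFAIP3 (A20), a feedback inhibitor of TNF receptor signalling, at 15.2 and 14.1 FPKM with the CEBPB siRNAs, against 8.61 and 6.20 FPKM in the controls. Its log2 difference was 0.91 ± 0.21 (limma adjusted p = 0.202; adjusted p of 0.025 in the authors' deposited table). The most abundant gene of this list, TNIP1, an A20-binding protein, was at 183 and 94.0 FPKM with the CEBPB siRNAs, against 86.0 and 79.2 FPKM in the controls (limma adjusted p = 0.493).

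No gene of the NF-κB lists passed in either table. Of 4 non-canonical genes 1 had an unadjusted p below 0.05, and of 9 canonical genes 2, where 12.2% of all genes did. NFKB2, the precursor processed in the pathway that LTBR uses, was at 96.8 FPKM with siRNA-1 and 55.4 FPKM with siRNA-2, against 52.3 and 35.9 FPKM in the controls (log2 difference 0.74 ± 0.32, limma adjusted p = 0.447). NFKBIA, the inhibitor IκBα, was at 169 and 95.2 FPKM with the CEBPB siRNAs, against 94.0 and 102 FPKM in the controls, and the groups overlapped.

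Among 8 genes that control shedding of TNF or its mRNA, 7 averaged at least 1 FPKM. None passed limma, and 4 had an unadjusted p below 0.05 (12.2% of all genes did). ZFP36L1 rose in the authors' deposited table, where 2.71% of all genes did. ZFP36L1, a protein that binds AU-rich mRNA, was at 81.7 and 89.5 FPKM with the CEBPB siRNAs, against 41.0 and 38.6 FPKM in the controls (log2 difference 1.08 ± 0.15, limma adjusted p = 0.0983; adjusted p of 5.4e-05 in the authors' deposited table). The most abundant of the list, LITAF, was at 74.6 and 89.1 FPKM with the CEBPB siRNAs, against 120 and 132 FPKM in the controls, and did not pass (limma adjusted p = 0.249). ZFP36 (tristetraprolin), which destabilises TNF mRNA and was named after its values were seen, was at 14.6 and 8.76 FPKM with the CEBPB siRNAs, against 19.9 FPKM in each control (limma adjusted p = 0.333).

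Of 24 known targets of TNF or LTBR, 14 averaged at least 1 FPKM, with a median log2 difference of 0.82. CCL2 and IL32 rose in limma, and these and 4 more in the authors' deposited table, where 0.064% and 2.71% of all genes rose. No target passed as lower in either, but IL6 had no adjusted p in either. It was listed at 0 with both CEBPB siRNAs, against 0.614 and 0.749 FPKM in the controls, with an authors' deposited mean count of 5.35. CCL2, a monocyte chemokine, was at 682 and 517 FPKM with the CEBPB siRNAs, against 74.2 and 70.1 FPKM in the controls (log2 difference 3.02 ± 0.19, limma adjusted p = 0.0167). IL8 (CXCL8) was at 268 and 138 FPKM with the CEBPB siRNAs, against 62.3 and 53.8 FPKM in the controls (log2 difference 1.71 ± 0.32, limma adjusted p = 0.146). In both genes the siRNA-1 library was the highest. ICAM1, an adhesion molecule for leukocytes, was at 35.6 FPKM with siRNA-1 and 17.5 FPKM with siRNA-2, against 7.28 and 4.34 FPKM in the controls (log2 difference 1.97 ± 0.39, limma adjusted p = 0.156; adjusted p of 1.7e-05 in the authors' deposited table). CXCL2, a neutrophil chemokine, was at 67.9 and 94.7 FPKM with the CEBPB siRNAs, against 40.9 and 40.5 FPKM in the controls (log2 difference 0.96 ± 0.20, limma adjusted p = 0.173; adjusted p of 0.012 in the authors' deposited table). For ICAM1 and CXCL2, as for 9 of the 14 targets, both siRNA libraries lay above both controls, as in 23.5% of 14068 genes. The chemokines of lymphoid tissue CCL19, CCL21, CXCL12 and CXCL13, which LTBR is known to induce in stromal cells, were listed at 0 in every library.

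The genes nearest to LTB in pattern were sought over the 4 libraries by Euclidean distance of log2(FPKM + 1) values, each gene centred on its control mean. Centred in this way, the distance mostly reflects the size of the difference from the controls. The nearest genes are thus others that were much higher with the CEBPB siRNAs, and the list is a description. IL32, a cytokine gene that is also among the targets, was the closest at 0.399 log2 units, with 276 and 193 FPKM in the CEBPB siRNA libraries, against 15.6 and 14.5 FPKM in the controls. Also among the 5 closest were AKAP2 at 1.03 and the cytokine genes IL11 at 1.18 and CSF2 at 1.43, and 4 libraries are few points for such an order. AKAP2 shares its locus with a readthrough gene, so its level is uncertain.

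Position was examined through the gene order in RefSeq. Of 9 protein-coding neighbours within 50 kb of LTB, 3 averaged at least 1 FPKM and none of them passed limma; TNF passed in the authors' deposited table. DDX39B, an RNA helicase, was at 91.5 and 113 FPKM with the CEBPB siRNAs, against 94.9 and 101 FPKM in the controls. PRRC2A was at 60.2 and 53.5 FPKM with the CEBPB siRNAs, against 44.6 FPKM in each control. NFKBIL1 was at 8.93 and 10.6 FPKM with the CEBPB siRNAs, against 7.78 and 7.53 FPKM in the controls. For PRRC2A and NFKBIL1 both siRNA libraries lay above both controls, as in 23.5% of 14068 genes, while DDX39B overlapped. LST1, the next gene beyond LTB, had 0.600 FPKM in the siRNA-1 library, with a listed 0 in each of the others. LTBR and TNFRSF1A are also neighbours, on chromosome 12, with the sodium channel gene SCNN1A between them. SCNN1A, which overlaps LTBR in RefSeq, was at 2.15 and 1.499 FPKM with the CEBPB siRNAs, against 2.25 and 2.16 FPKM in the controls (limma adjusted p = 0.802).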

How the data were processed

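Total RNA of A549 cells was sequenced as strand-specific 76-base single-end reads, per the labels' protocols. The submitters' processing notes list the genome build hg19 and, without saying which step each served, DESeq2 1.26.0, HTSeq 0.13.5, StringTie 2.1.4 and STAR 2.7.0d. The deposited table holds 1 value per gene and library, read as FPKM from the tools named and from column sums that differ between libraries, since the file headers name no unit. Its other columns are a DESeq2 comparison of CEBPB siRNA over control, per the file headers: a signal (the authors' mean count after size factors), the authors' log2 fold change with its standard error, a Wald score from the authors, and the authors' adjusted p-value beside its unadjusted form. Library counts were not used here, so the depth per library is known only as the sum of the authors' mean counts. The members and gene lists were chosen with earlier results of these data known.

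Genes averaging at least 1 FPKM were fitted with limma 3.58.1 (R 4.3.3, intensity trend) on log2(FPKM + 1), with Benjamini-Hochberg adjustment over all genes tested. Residual degrees of freedom numbered 2, and the prior added 3.61. A fit with 3 groups compared the siRNAs. The limma step was tested on simulated data. Named were the members, listed genes past an adjusted p of 0.05 in limma or in the authors' deposited table, and the most abundant gene of each list. So were the 5 genes closest to LTB and some, not all, of the genes within 50 kb of LTB, LTBR or TNFRSF1A. Others were named after their values were seen. Of the 5 closest genes, 1 is not reported here. RefSeq gave gene order and promoter sequence (GRCh38.p14). Alternatives were another pseudocount, other filters, other scalings, a replicate block, leaving out each library and the authors' comparison.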

Additional observations from a re-analysis of the deposited data

Results flagged for a closer look

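The genes averaging at least 1 FPKM were 6 members, 12 further family genes and 58 signalling and target genes. Of these, 9 had the CEBPB siRNA libraries on opposite sides of both controls, and none of the 9 was a member. Chance places some genes there, and the share over all genes was not determined, so the count is not read as a result. The difference itself (siRNA-1 minus siRNA-2, log2 scale) was tested in limma with 3 groups, and no adjusted p was below 0.05 as reported. With genes averaging at least 5 FPKM, BCL3, CXCL1, CXCL3, FADD, MAP3K14 and TAB2 passed, where 480 genes were higher and 813 lower of 9511. With median-of-ratios scaling CXCL3 did, where 88 were higher and 83 lower of 14052. Among the marker genes CD68 had the same arrangement (1.64, adjusted p = 0.0722). The chemokines CXCL3 (-1.39, adjusted p = 0.0525), CXCL1 (-1.18, adjusted p = 0.0542) and CCL20 (-0.57, adjusted p = 0.146) and the NF-κB cofactor BCL3 (-0.82, adjusted p = 0.108) were above both controls with siRNA-2 and below both with siRNA-1. CCL5 (2.06, adjusted p = 0.0755), MAP3K14 (1.04, adjusted p = 0.0955), TAB2 (0.91, adjusted p = 0.0805), FADD (0.62, adjusted p = 0.128) and TRADD (0.31, adjusted p = 0.482) were above both controls with siRNA-1 and below both with siRNA-2. MAP3K14, the kinase of the non-canonical pathway, was at 32.0 FPKM with siRNA-1 and 15.0 FPKM with siRNA-2, against 20.2 and 15.9 FPKM in the controls.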

How the results depend on the processing

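The LTB difference was 4.98 with a pseudocount of 0.1 and 3.97 to 4.22 when each library was left out, against 4.10 as reported. It moved by less than the spread within the groups under the other alternatives. Members past the threshold numbered 1 as reported, 0 with no filter, 4 with 3 groups in the fit and 3 in the authors' deposited comparison, and ranged from 0 to 3 when each library was left out. The wider family had 0 as reported, 2 with 3 groups in the fit and 3 in the authors' deposited comparison, and 0 to 4 when each library was left out. Signalling and target genes numbered 2 as reported, 0 with no filter, 15 with 3 groups in the fit and 8 in the authors' deposited comparison, and 0 to 18 when each library was left out; all 3 maxima came without siRNA-2. Without control 1 or without control 2 no gene in the table passed limma (736 and 685 at an unadjusted p below 0.05), nor with no filter (2438); without siRNA-2, 870 were higher and 894 lower, against 9 and 24. Between the siRNAs 0 members passed as reported and 1, TNFRSF12A, when genes had to average 5 FPKM or more; over all genes 62 passed as reported, 480 higher and 813 lower with that filter, 909 and 1006 with no filter, and 0 and 1 with a pseudocount of 0.1. The cause was not tested. Deviations of same-numbered libraries correlated at 0.0754 across genes. The deviation of a CEBPB siRNA library also holds the difference between the siRNAs, so this value cannot decide whether the numbers pair the samples. With the replicate block the counts remained 1, 0 and 2. The larger counts with 3 groups in the fit are to be read beside those over all genes. There 538 were higher and 433 lower of 14068, against 9 and 24 as reported. The direction of TNFSF9, TNFRSF21 and TNFRSF11B, none of them called, changed with the library left out. Few reads limit TNF, TNFSF10, TNFSF15 and TNFRSF11B.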

Other observations

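For some genes of the family the FPKM values and the authors' deposited counts did not match. RNF31, a subunit of the linear ubiquitin ligase of TNF receptor signalling, was at 21.3 and 23.4 FPKM with the CEBPB siRNAs, against 13.6 and 11.0 FPKM in the controls, a log2 difference of 0.82, where the authors' deposited table gives 0.01. TNFSF13 (APRIL) differed by 0.32 in FPKM, and the authors' deposited table gives -0.61. TNFRSF6B, a decoy receptor of TNFSF15, was at 0.0829 and 0.339 FPKM with the CEBPB siRNAs, against 0.141 and 0.564 FPKM in the controls, with a mean count of 0 in the authors' deposited table. TNFSF13 and TNFRSF6B lie in readthrough loci, and the part of this in the values was not tested. TNFRSF25 (DR3), the signalling receptor of TNFSF15, was at 0.769 and 1.72 FPKM with the CEBPB siRNAs, against 0.392 and 0.402 FPKM in the controls, and did not pass in the authors' deposited table (adjusted p = 0.603).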
